A study of Mus musculus with 3 samples.

Results

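The retinoid receptors and the cellular retinoic acid binding proteins were followed as 8 genes, *Rara*, *Rarb*, *Rarg*, *Rxra*, *Rxrb*, *Rxrg*, *Crabp1* and *Crabp2*. They were taken by symbol from 28953 genes listed in at least 1 of 3 single-cell count tables, and all 8 were listed in each table. The tables hold 1 library each. The D10 culture is the whole monolayer obtained from mouse embryonic stem cells (mESCs) that carry the ScxGFP reporter of *Scx*, the transcription factor of tendon progenitors. The stem cells were kept on irradiated mouse embryonic fibroblasts, formed embryoid bodies with the BMP inhibitor LDN-193189, were specified with the WNT activator CHIR and LDN-193189, and from D6 received TGFβ1, the hedgehog agonist SAG and FGF2. D6 PM is the culture at the end of paraxial mesoderm (PM) specification, before TGFβ1 and SAG. It is labelled as embryoid bodies, although the methods place their formation before the CHIR step. The third library, the E14.5 tail, is the dissociated tail of mouse embryos at that embryonic day. According to the paper, its embryos came from ScxGFP mice of the C57BL6 strain and were of both sexes. The labels and methods name no added retinoid or retinoid antagonist for these libraries. The study asked whether cells made in culture resemble tail tendon and fibrocartilage, and which signals separate these fates.

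Retinoic acid is made from retinol by retinol and retinaldehyde dehydrogenases and is cleared by CYP26 enzymes. It acts through heterodimers of a retinoic acid receptor (RARα, RARβ or RARγ, encoded by *Rara*, *Rarb* and *Rarg*) with a retinoid X receptor (RXRα, RXRβ or RXRγ, encoded by *Rxra*, *Rxrb* and *Rxrg*), which sit on response elements in DNA, recruit corepressors without ligand and exchange them for coactivators with it. CRABP2 carries retinoic acid to the nuclear receptors and CRABP1 binds it in the cytoplasm. In the limb and axial skeleton, RARγ is known as a receptor of chondrogenic cells, where unliganded receptor favors cartilage formation, and *Rarb* is known as a direct target of liganded RARs.

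The culture held 7821 cells with 53403944 unique molecular identifiers (UMIs, 1 for each captured transcript), the tail 2052 cells with 31343741, and D6 PM 5954 cells with 51858825. The median number of UMIs per cell was 5622, 13512 and 8171. The libraries shared 3 to 10 cell barcodes pairwise, and the barcodes of cells were not merged. Levels are given as CPM. For these, the UMIs of each gene were added up within a cluster and scaled by the total UMIs found there. Intervals in parentheses are exact 95% intervals and cover counting error only. Cells of 1 library are not replicates of a condition, so no test between libraries or clusters was made. A gene was called different where the ratio of levels was at least 2-fold and it had at least 20 UMIs over both groups.

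The tables give each cell a cluster code made by the authors, with 14 codes in the culture, 13 in the tail and 6 in D6 PM. Codes were made from the expression of the same cells, so a difference between codes is a description. The paper reports that tail cells were clustered first and that D10 culture cells were then assigned to these clusters by nearest neighbors. A code number shared by culture and tail is therefore an assigned label. Code 1 held connective tissue cells, with *Scx* at 2410 CPM in the culture and 1472 CPM in the tail. Code 2 held dividing connective tissue cells, with the topoisomerase gene *Top2a* at 1409 and 1348 CPM. Code 4 was cartilage-like, with the cartilage collagen gene *Col2a1* at 2271 and 4282 CPM and *Scx* at 1852 and 1905 CPM. The tables give numbers and no names for the clusters, so codes are used here. In tail code 1 the mesenchyme marker *Osr1* and none of the tendon markers stood among the 10 leading genes, so culture and tail were compared by code number.

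In the tail, the muscle-like cells were code 5, the nerve-like cells codes 10 and 14, the skin-like cells codes 3 and 8, the endothelium-like cells code 11 and the blood-like cells codes 6 and 12. Tail code 3 was mixed. By fold over other cells, *S100a9* (885 CPM) and *S100a8* (768 CPM) led it ahead of the skin marker *Krt14* (2687 CPM). It also held the white blood cell marker *Tyrobp* at 64.2 CPM. In the culture, code 3 was pluripotent-like, code 8 epithelium-like and code 11 endothelium-like. Culture code 8 had as many endoderm markers (*Afp* and *Ttr*) as epithelium markers (*Krt8* and *Krt18*) among its 10 leading genes. Code 9 held connective tissue markers together with white blood cell markers in both libraries (*Tyrobp* at 512 CPM in the culture and 549.8 CPM in the tail) and was left unnamed, as were codes 5, 6, 7 and 13 of the culture and code 7 of the tail. In D6 PM, code 1 was epithelium-like, code 2 pluripotent-like and code 4 somite-like. None of the 10 leading genes of code 4 was a somite marker (*Zic1* and *Ptn* led), and its tendon and connective tissue markers summed to 1893 CPM against 422 CPM for the somite markers, which summed to at most 112 CPM in each other code of D6 PM. Code 5 was led by *Col1a1* (3858 CPM) and other connective tissue genes but held *Lyz2*, a gene of white blood cells, at 626 CPM and *Tyrobp* at 84.8 CPM, and was left unnamed as well. Code 3 was dividing and epithelium-like, with the epithelial gene *Epcam* at 1358 CPM but proliferation markers and no epithelium marker among its 10 leading genes. Code 6 was left unnamed, since embryonic globin genes led it (*Hba-x* at 7515 CPM) ahead of the endothelium marker *Kdr* (451 CPM). *Tbx6*, the defining marker of presomitic paraxial mesoderm, was at 1.47 CPM over D6 PM, and the somite marker *Meox1* was at 187 CPM in code 4 against 4.18 CPM in code 1. Code 4 held 700 of the 5954 cells and 1137 of the 1254 *Meox1* UMIs of its library. Codes with fewer than 20 cells in a library got no level.

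The position of each gene is given on the GRCm38 build from the GENCODE M21 annotation, as the build of the deposited counts is not given in the sources used here. *Rara* lies on chr11:98927818-98974942 (+), *Rarb* on chr14:16430839-16819156 (−) and *Rarg* on chr15:102234938-102257517 (−). *Rxra* lies on chr2:27676440-27762957 (+), *Rxrb* on chr17:34031812-34038399 (+) and *Rxrg* on chr1:167598384-167639623 (+). *Crabp1* lies on chr9:54764748-54773110 (+) and *Crabp2* on chr3:87948666-87953376 (+). The last 4624 bases of *Rarb* overlap *Top2b* on the other strand, and the antisense gene *Gm48162* overlaps 4859 bases within it. Without a stated strand setting for the counting, the *Rarb* counts are therefore uncertain. *Gm22061* overlaps 107 bases of *Rara* on the same strand, so reads there cannot be assigned by strand.

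Promoter windows from RefSeq (GRCm38.p6), each of 300 bases with 250 before and 50 after a transcription start, were matched for 7 of the 8 genes in 14 windows. Each was searched on both strands for 2 copies of the half-site GTTCA in the same direction with any 6 bases between them. The repeat was found in 25 of 32851 windows (0.0761%). Of the 7 genes it was in the window of *Rarb* alone, where its first base lies 52 and its last base 37 bases before the start. From the other retinoid genes examined it was also in the window of *Cyp26a1*, the gene of a retinoic acid hydroxylase, on the opposite strand. A match is a description of letters and not a measured site. The 120 bases before each start are shown because both genes are used below as known targets of the receptors; capitals mark the half-sites.
Rarb, chr14:16575477-16575596 (−): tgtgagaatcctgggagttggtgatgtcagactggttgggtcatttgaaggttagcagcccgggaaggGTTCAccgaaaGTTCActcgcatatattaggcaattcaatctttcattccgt
Cyp26a1, chr19:37697688-37697807 (+): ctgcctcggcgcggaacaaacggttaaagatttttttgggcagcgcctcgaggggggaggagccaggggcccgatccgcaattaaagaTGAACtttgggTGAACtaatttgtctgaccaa

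*Rarg* spanned the widest range of levels of the 3 RAR genes in culture and tail. In the culture its level was 88.1 CPM (78.3 to 98.8) in code 4, 68.1 in code 3, 64.5 in code 6, 50.7 in code 2, 48.9 (45.6 to 52.4) in code 1, 44.5 in code 7, 37.7 in code 5, 36.4 in code 9, 15.6 in code 8 and 15.2 in code 11. No *Rarg* UMI was found in code 13, which allows a level of up to 7.29 CPM. In the tail it was 214 CPM (198 to 230) in code 4, 121 in code 9, 108 in code 8, 83.4 in codes 1 and 3, 82.7 in code 2, 62.8 in code 7, 58.0 in code 14, 29.7 in code 11, 19.7 in code 6 and 10.2 in the muscle-like code 5. A single *Rarg* UMI was found over the 137 nerve-like cells of code 10 (0.593 CPM) and a single UMI over the 128 blood-like cells of code 12 (0.942 CPM), so that code 10 was not above the level of free RNA. The cartilage-like cells thus had the highest *Rarg* level in both libraries, and the step down to the next code (code 3 in the culture, code 9 in the tail) was larger than counting error.

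In D6 PM, *Rarg* was at 58.2 CPM (52.2 to 64.6) in code 5 and at 16.9 CPM in code 6 and 16.2 CPM in code 2. It was at 6.09 CPM (4.29 to 8.39) in the somite-like code 4, 4.18 CPM in code 1 and 1.31 CPM in code 3. Code 5 made up 11.1% of the cells of D6 PM and held 49.4% of its *Rarg* UMIs.

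*Rara* was the most even of the RAR genes outside the blood-like codes of the tail. Its level in the culture lay between 19.4 CPM in code 13 and 72.0 CPM in code 7. None of the 10 steps between neighboring codes in the order was larger than counting error. Such steps do not measure evenness, as code 2 was at 61.1 CPM (654 UMIs) and code 3 at 35.7 CPM (419 UMIs). In the tail it lay between 30.8 CPM in code 3 and 81.5 CPM in code 14 outside the blood-like codes, in which it was 7.89 CPM (code 6) and 1.88 CPM (code 12). In D6 PM it was highest in the somite-like code 4 at 53.3 CPM (47.7 to 59.4), not beyond counting error from code 6 at 45.9 CPM, and lowest in the pluripotent-like code 2 at 15.7 CPM (13.5 to 18.1).

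*Rarb* was the lowest RAR gene in both connective tissue codes of culture and tail. In the tail it was at 31.4 CPM (23.5 to 41.1) in the nerve-like code 10, 30.6 CPM (27.3 to 34.2) in code 1, 25.1 in code 9 and 22.9 in code 2, and no step between neighbors in this order was larger than counting error. It was at 5.44 CPM in tail code 4 and 1.57 CPM in code 14. In the culture the epithelium-like code 8 was highest at 26.3 CPM (17.4 to 38.3), against 11.4 CPM in code 1, 8.03 in code 2, 5.41 in code 4 and 1.28 in code 3. In D6 PM the epithelium-like codes 1 and 3 were also highest, at 35.7 CPM (33.0 to 38.5) and 29.6 CPM (25.9 to 33.7), against 18.9 CPM in the somite-like code 4 and 9.83 CPM in code 5. These epithelium-like codes also held endoderm markers, which summed to 1841 CPM in culture code 8 and to 637 and 656 CPM in D6 PM codes 1 and 3, against 29.6 CPM in D6 PM code 4 and 16.8 CPM in code 5. Their part in the *Rarb* levels was not tested.

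**Figure D1:**
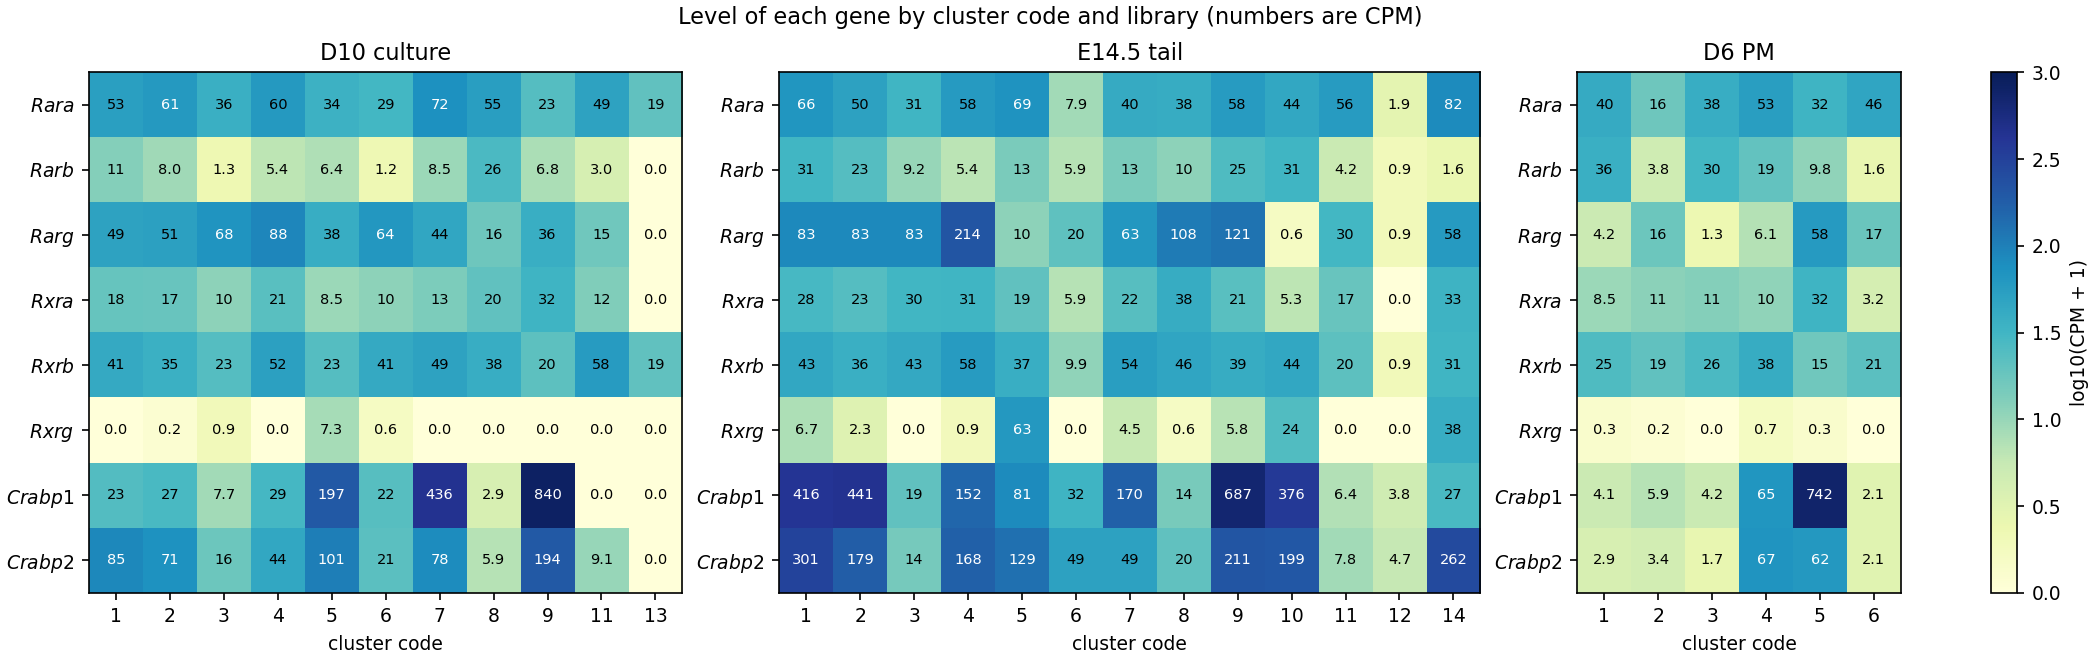
Level of the 8 genes (rows) in each cluster code (columns) of the 3 libraries, as a color on the log10(CPM + 1) scale with the CPM printed in each cell. *Rarg* is highest in code 4 of culture and tail, *Rxrg* is at most 7.33 CPM outside tail codes 5, 10 and 14, and *Crabp1* reaches 840 CPM in culture code 9 and 742 CPM in D6 PM code 5.

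The makeup of RAR transcripts differed between codes as well. A 3′ library counts 1 tag for each captured transcript, so UMIs were compared between genes without division by length, although capture can differ between 3′ ends. In tail code 4, *Rarg* gave 77.0% (74.2 to 79.7) of the 918 RAR UMIs, *Rara* 21.0% and *Rarb* 1.96%. In tail code 1, *Rarg* gave 46.3% (44.0 to 48.6), *Rara* 36.7% and *Rarb* 17.0%. In the culture, *Rarg* gave 57.5% (53.0 to 61.8) in code 4 and 43.2% (40.9 to 45.5) in code 1. A high *Rarg* share was not limited to the cartilage-like cells, as it gave 64.8% (62.1 to 67.5) in the pluripotent-like code 3 and 67.9% (60.1 to 75.1) in code 6 of the culture, 68.9% (63.0 to 74.3) in the skin-like code 8 of the tail and 58.1% (54.0 to 62.2) in code 5 of D6 PM. In the muscle-like cells of the tail *Rara* gave 74.5% of RAR UMIs and *Rarg* 11%, and in the nerve-like code 10 *Rara* gave 57.8% and *Rarb* 41.4%. In the somite-like cells of D6 PM *Rara* gave 68.1% (63.7 to 72.2), *Rarb* 24.2% and *Rarg* 7.77%.

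**Figure D2:**
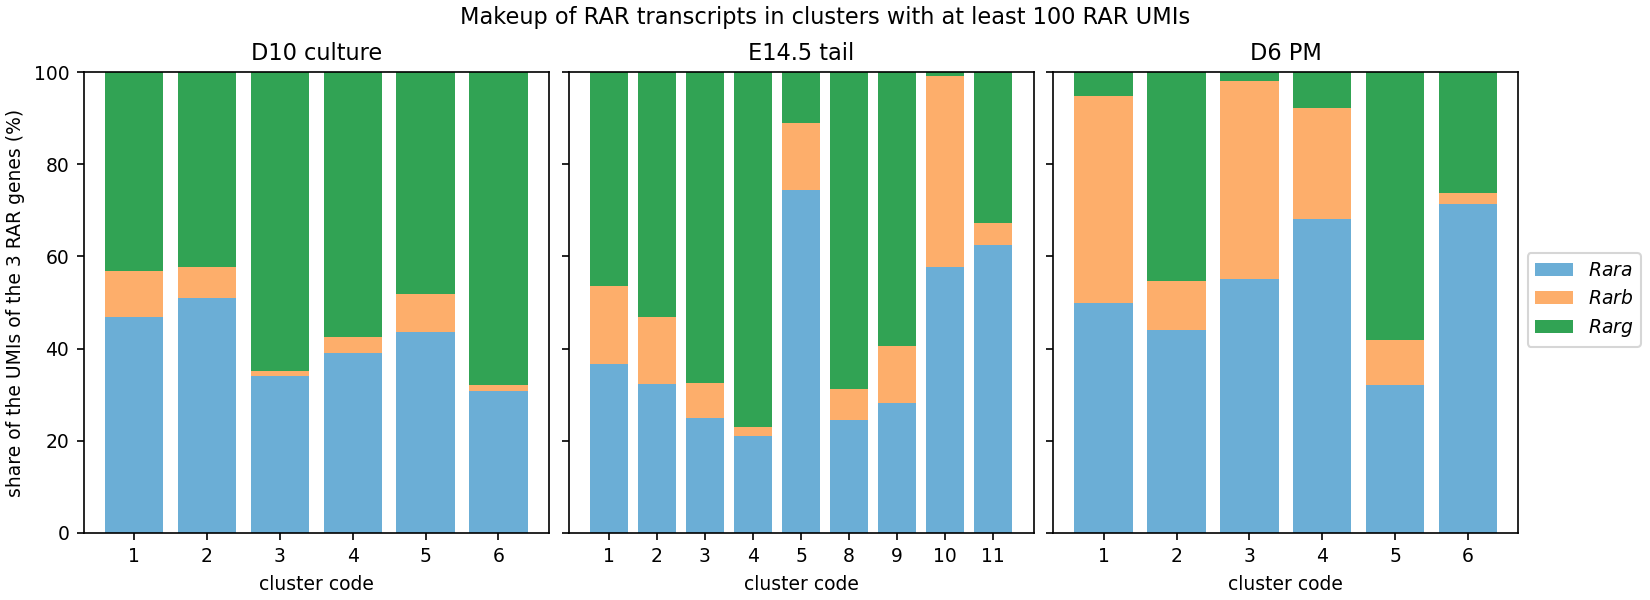
Share of *Rara*, *Rarb* and *Rarg* in the UMIs of the 3 RAR genes (vertical axis, percent) in each cluster code with at least 100 RAR UMIs, by library. *Rarg* takes 77.0% in tail code 4 and 57.5% in culture code 4, 67.9% in culture code 6 and 0.781% in the nerve-like tail code 10.

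Of the RXR genes, *Rxrb* gave the most UMIs in each library. It made up 68.1% of RXR UMIs in the culture, 54.2% in the tail and 66.1% in D6 PM. Its level was 40.9 CPM in code 1 and 51.7 CPM (44.3 to 60.1) in code 4 of the culture, and 43.0 and 57.7 CPM (49.8 to 66.5) in the tail. Over the other codes it lay between 19.4 and 57.6 CPM in the culture, and in the tail between 20.5 and 53.8 CPM outside the blood-like codes. In D6 PM it was highest in the somite-like code 4, at 38.5 CPM (33.7 to 43.8), and lowest in code 5, at 15.3 CPM (12.3 to 18.8).

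*Rxra* was lower than *Rxrb* in codes 1, 2 and 4 of both libraries, at 17.8, 17.1 and 21.4 CPM in the culture and 27.7, 22.6 and 31.4 CPM in the tail. The skin-like code 8 of the tail had the highest *Rxra* level of that library, 38.4 CPM (29.8 to 48.8), which did not differ beyond counting error from the next, code 14 at 32.9 CPM, and the nerve-like code 10 had 5.33 CPM (2.44 to 10.1). In D6 PM the order of the pair was turned in code 5, with *Rxra* at 32.2 CPM (27.8 to 37.1), above the 8.53 to 11.4 CPM of codes 1 to 4. *Rxra* gave 67.4% (61.6 to 72.8) of RXR UMIs there and 20.4% (16 to 25.4) in the somite-like code 4. *Rxra* also stood above *Rxrb* in culture code 9, at 31.9 against 20.5 CPM, but from 14 against 9 UMIs. In tail code 14 the pair had 21 and 20 UMIs.

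*Rxrg* was low in most codes. In the tail it was at 62.8 CPM (52.7 to 74.3) in the muscle-like code 5, 37.6 CPM (24.1 to 56.0) in the nerve-like code 14, 24.3 CPM (17.4 to 33.0) in the nerve-like code 10 and 6.72 CPM (5.22 to 8.51) in code 1. The 4 cells with the most UMIs, of 121, gave at least 50% of the 136 UMIs of the muscle-like cells, and 1 cell held 23. In the culture, 49 of the 63 *Rxrg* UMIs lay in code 5 (7.33 CPM), the code that also held nearly all culture UMIs of the myogenic factor gene *Myog* (246 of 250). The pluripotent and epithelium markers of that code summed to 970 and 953 CPM, above the 520 CPM of its muscle markers. No *Rxrg* UMI was found in code 1 or code 4 of the culture, which allows levels of up to 0.181 and 0.902 CPM, and D6 PM held 14 UMIs in all.

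*Crabp1* spanned the widest range of the 8 genes. In the tail it was at 687 CPM (654 to 720) in code 9, 441 in code 2, 416 in code 1, 376 in code 10, 170 in code 7, 152 in code 4 and 81.2 in the muscle-like cells, and at most 31.5 CPM in the other codes. In the culture it was at 840 CPM (757 to 931) in code 9, 436 in code 7 and 197 in code 5, but at 28.6 CPM in code 4, 27.3 CPM in code 2 and 23.2 CPM in code 1. In D6 PM it was at 742 CPM (720 to 765) in code 5 and at 65.5 CPM (59.2 to 72.2) in the somite-like code 4, and at most 5.91 CPM elsewhere.

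The *Crabp1* UMIs were concentrated in few cells. D6 PM code 5 held 4378 of the 4959 *Crabp1* UMIs of its library, and 40 of its 662 cells gave at least 50% of these, with 227 in a single cell. Culture code 5 held 1315 UMIs, at least 50% of them in 12 of 556 cells. Culture code 7 held 206 UMIs, at least 50% of them in 2 of 257 cells, and 77 in a single cell. Culture code 9, with 53 cells or 0.678% of the library, held 12.9% of the *Crabp1* UMIs, at least 50% of them in 6 cells. The levels of these culture codes thus rest on few cells. In tail code 1, 86 of 685 cells gave at least 50% of the 4210 UMIs.

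*Crabp2* was highest in connective tissue and nerve-like cells of the tail, at 301 CPM (291 to 312) in code 1 and 262 CPM (224 to 305) in code 14, 2 neighbors that did not differ beyond counting error. It followed at 211 CPM in code 9, 199 in code 10, 179 in code 2, 168 in code 4 and 129 in the muscle-like cells, and was at most 49.3 CPM in the other codes. In the culture it was at 194 CPM (155 to 239) in code 9, 101 in code 5, 85.2 (80.8 to 89.7) in code 1, 78.4 in code 7, 71.0 in code 2 and 43.9 (37.1 to 51.6) in code 4. In culture code 9, 3 of 53 cells gave at least 50% of the 85 *Crabp2* UMIs. In D6 PM it was at 67.0 CPM in the somite-like code 4 and 62.4 CPM in code 5, and at most 3.37 CPM elsewhere.

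The balance of the 2 binding proteins differed between culture and tail. *Crabp1* gave 58.0% (56.8 to 59.1) of the UMIs of the pair in tail code 1 and 21.4% (19.5 to 23.4) in culture code 1. In code 4 it gave 47.5% (44.5 to 50.6) in the tail and 39.4% (33.2 to 45.9) in the culture. It gave 92.2% in D6 PM code 5, 49.4% (45.9 to 53.0) in D6 PM code 4 and 9.24% (5.47 to 14.4) in the nerve-like code 14 of the tail.

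**Figure D3:**
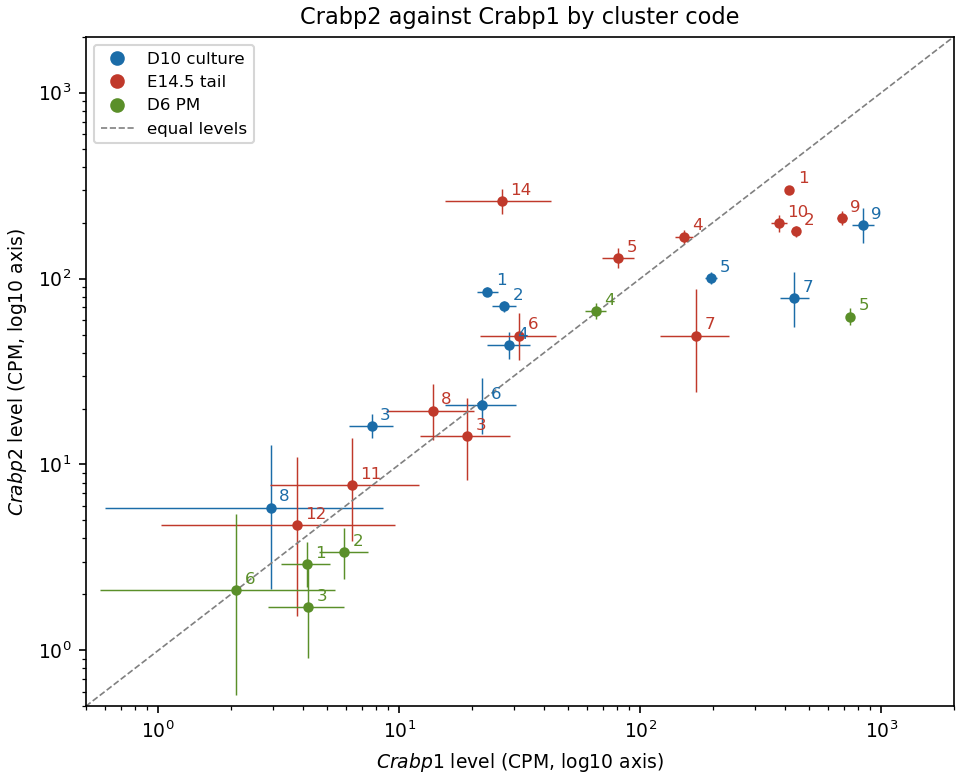
*Crabp2* level (vertical, CPM) against *Crabp1* level (horizontal, CPM), both on log10 axes, for each cluster code (number beside the point) of the 3 libraries, with 95% Poisson intervals. The dashed line marks equal levels. Codes 1, 2 and 4 of the culture lie above the line and those with the highest *Crabp1* (code 9 of both libraries and D6 PM code 5) below it. Culture codes 11 and 13, without a *Crabp1* UMI, are not drawn.

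The first comparison was cartilage-like code 4 over connective tissue code 1 within each library. In the tail, *Rarg* was 2.56-fold higher in code 4 (2.32 to 2.84), *Rarb* was lower at a ratio of 0.178 (0.104 to 0.286), *Crabp1* at 0.366 (0.333 to 0.401), *Crabp2* at 0.558 (0.509 to 0.611) and *Rxrg* at 0.135 (0.0272 to 0.412, 3 against 68 UMIs). In the culture, *Rarg* was 1.80-fold higher (1.57 to 2.06), *Rarb* lower at 0.475 (0.276 to 0.772) and *Crabp2* at 0.515 (0.432 to 0.612). *Crabp1* had a ratio of 1.23 in the culture with an interval that includes 1 (0.973 to 1.54). *Rxrb* was slightly higher in code 4 of both libraries, at 1.26 (1.06 to 1.5) in the culture and 1.34 (1.13 to 1.60) in the tail. The intervals for *Rara* and *Rxra* included 1 in both libraries.

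In the culture, 0 of 7 genes with enough UMIs were called higher and 1 lower (*Rarb*), where 3.84% of all genes tested were called higher and 8.85% lower (12.7% in either direction). In the tail, 1 of 8 was called higher (*Rarg*) and 3 lower (*Rarb*, *Rxrg* and *Crabp1*), where 4.68% of all genes were called higher and 10.9% lower (15.5% in either direction). The median log2 ratio of all genes tested was 0.0018 (culture) and −0.012 (tail). With 1 library each, the difference between the culture's and the tail's ratios could not be tested against replicates.

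**Figure D4:**
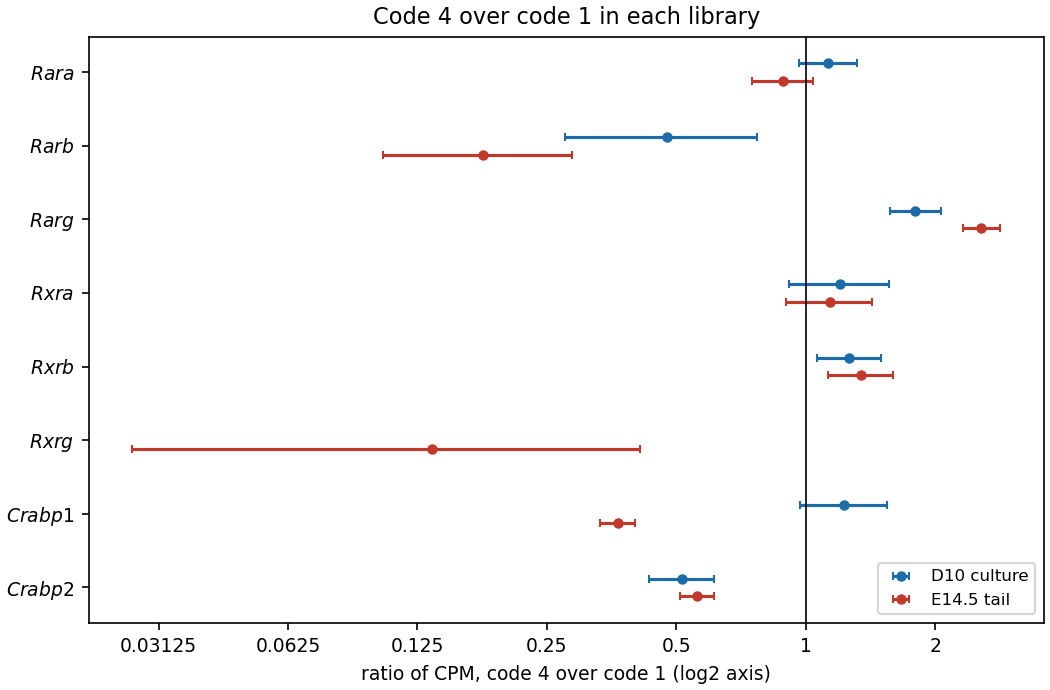
Ratio of levels in code 4 over code 1 (horizontal, log2 axis) for each gene with at least 20 UMIs over both codes, in the D10 culture and the E14.5 tail. Points are ratios of CPM and bars exact 95% intervals for counting error. *Rarg* lies above 1 and *Rarb* and *Crabp2* below 1 in both libraries, and *Crabp1* lies below 1 in the tail alone.

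Shares of cells with a UMI were compared after each cell was thinned to 3000 UMIs, leaving out shallower cells. *Rarg* was detected in 45.0% (38.6 to 51.5) of 240 cells in tail code 4 and 23.6% (20.4 to 27.0) of 678 cells in code 1. In the culture it was detected in 22.9% (19.7 to 26.4) of 641 cells in code 4 and 13.5% (12.2 to 14.9) of 2595 cells in code 1. Without thinning the shares were 83.8% and 63.1% in the tail and 28.8% and 22.8% in the culture, at median depths of 13136, 13463, 3696 and 4918.5 UMIs. In the blood-like code 12 of the tail, used as a level of free RNA, *Rarg* was in 0.8% of 125 thinned cells and *Crabp1* and *Crabp2* were in 1.60% each, at a median of 8391.5 UMIs. Blood markers took 86.5% of the UMIs of those cells, which leaves little depth for other genes. The other blood-like code, code 6, had higher levels. *Rarg*, *Crabp1* and *Crabp2* were at 19.7, 31.5 and 49.3 CPM there, against 0.942, 3.77 and 4.71 CPM in code 12.

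*Crabp1* was detected in 49.9% (46.0 to 53.7) of thinned cells in tail code 1 but 4.78% (3.99 to 5.67) in culture code 1. The unthinned shares were 75.0% and 7.79%. *Crabp2* was detected in 47.5% (43.7 to 51.3) and 18.0% (16.5 to 19.5), with 83.4% and 23.7% unthinned.

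Dividing code 2 was close to code 1 for most members. *Rarg* had a ratio of code 2 over code 1 of 1.04 (0.928 to 1.16) in the culture and 0.992 (0.874 to 1.12) in the tail. *Rarb* was lower in code 2 at 0.705 (0.540 to 0.914) and 0.747 (0.589 to 0.939), and *Crabp2* at 0.833 (0.762 to 0.911) and 0.596 (0.550 to 0.645). Only *Rxrg* in the tail passed 2-fold, at 0.344 (0.158 to 0.672), where 7.5% of all genes were called lower and 5.21% higher (12.7%). In the culture 0 of 7 members passed it, where 3.59% of all genes were called lower and 4% higher (7.59%). The median log2 ratio of all genes was −0.085 (culture) and −0.15 (tail), and both ratios share code 1 with those of code 4.

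The second comparison was culture over tail in the same code. Code 1 of the culture was lower in *Crabp1* at a ratio of 0.0558 (0.0502 to 0.0620), in *Crabp2* at 0.283 (0.265 to 0.301), in *Rarb* at 0.372 (0.309 to 0.447) and in *Rarg* at 0.587 (0.533 to 0.647). *Rxra* was at 0.643 (0.544 to 0.760) and *Rara* at 0.803 (0.725 to 0.889), and the interval for *Rxrb* included 1 (0.953, 0.843 to 1.08). *Rxrg*, with 0 UMIs in the culture and 68 in the tail, was at least 37.1-fold lower when 3 counts are taken as the limit for the whole group, and the exact interval of its ratio reached up to 0.0340. No member was called higher and 4 of 8 were called lower, where 9.41% of all genes tested were called higher and 20.7% lower (30.1% in either direction). The median log2 ratio of all genes in this comparison was −0.25, and *Crabp1*, *Crabp2*, *Rarb*, *Rarg*, *Rxra* and *Rara* lay below it at −4.16, −1.82, −1.43, −0.77, −0.64 and −0.32.

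In code 2 the culture was again lower in *Crabp1* at 0.0618 (0.0544 to 0.0699), *Crabp2* at 0.395 (0.357 to 0.438) and *Rarb* at 0.351 (0.260 to 0.474), 3 of 7 genes, where 15.5% of all genes were called lower and 8.38% higher (23.9%). In code 4 the culture was lower in *Crabp1* at 0.188 (0.149 to 0.234), *Crabp2* at 0.261 (0.216 to 0.314) and *Rarg* at 0.412 (0.358 to 0.473), 3 of 7 genes, where 14.9% of all genes were called lower and 7.78% higher (22.7%). The median log2 ratio of all genes was −0.18 in code 2 and −0.17 in code 4. *Rarb* was level in code 4, at 0.995 (0.488 to 2.03) from 18 UMIs in each library. The blood markers that mark free RNA in the tail moved with this comparison: *Hbb-bt*, a haemoglobin gene, was at 280 CPM in tail code 1 and 0.422 CPM in culture code 1. The part of free RNA in the ratios was not tested. The members were at or under 4.71 CPM in the blood-like code 12, where blood markers took 86.5% of the UMIs. In the blood-like code 6 they reached 49.3 CPM (*Crabp2*). Ratios without mitochondrial, ribosomal protein and haemoglobin genes are described in the last section.

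**Figure D5:**
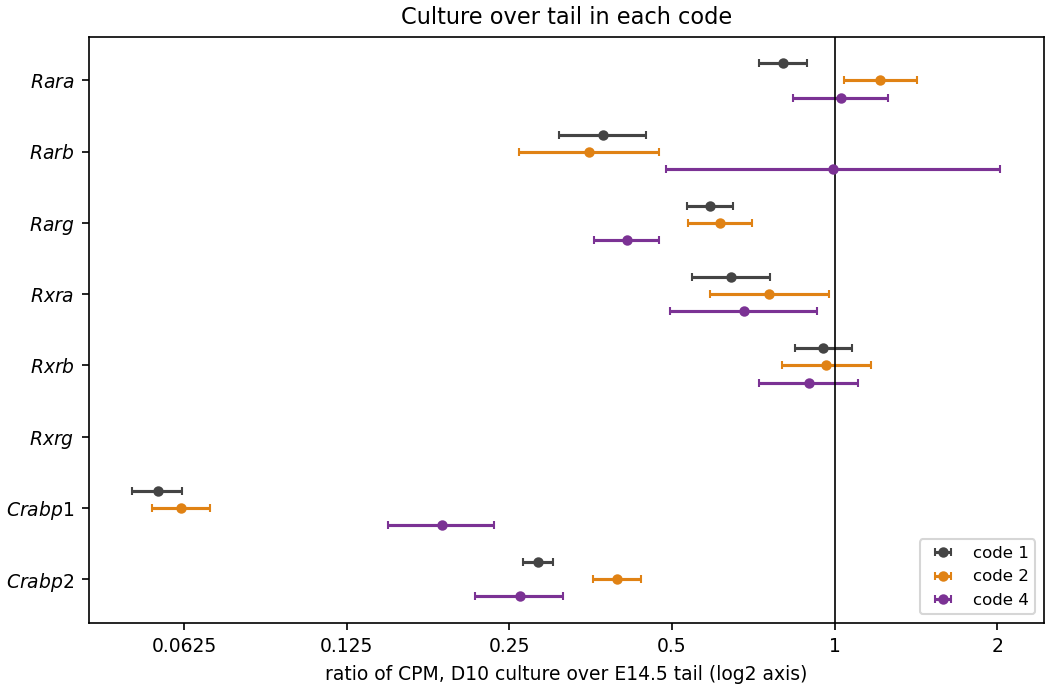
Ratio of levels in the D10 culture over the E14.5 tail (horizontal, log2 axis) in codes 1, 2 and 4, for each gene with at least 20 UMIs over both libraries and a UMI in each. Points are ratios of CPM and bars exact 95% intervals for counting error. *Crabp1* and *Crabp2* lie below 1 in the 3 codes, and *Rxrb* lies near 1 in each.

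Outside these codes the directions were mixed. In code 9 *Crabp1* was at 1.22 (1.09 to 1.37) in the culture over the tail and *Crabp2* at 0.916 (0.719 to 1.15), so that *Crabp1* was not lower in culture code 9, unlike codes 1, 2 and 4. The RAR genes were lower there, *Rara* at 0.396 (0.186 to 0.749, 10 against 140 UMIs), *Rarb* at 0.272 (0.0547 to 0.835, 3 against 61 UMIs) and *Rarg* at 0.300 (0.169 to 0.496, 16 against 295 UMIs). These were 3 of 7 genes lower and 0 higher, where 31.3% of all genes were called lower and 11.4% higher (42.7%), with a median log2 ratio of −0.40. In code 8, *Rarg* was at 0.145 (0.0811 to 0.241), *Crabp1* at 0.213 (0.0410 to 0.70, 3 against 24 UMIs), *Crabp2* at 0.300 (0.103 to 0.723, 6 against 34 UMIs) and *Rarb* at 2.55 (1.35 to 4.92), but code 8 held epithelium-like cells in the culture and skin-like cells in the tail. In code 5, *Rxrg* was at 0.117 (0.0825 to 0.163), *Rarg* at 3.71 (2.40 to 6.03) and *Crabp1* at 2.42 (2.07 to 2.85), with *Rara* at 0.496 (0.402 to 0.614), *Rarb* at 0.481 (0.293 to 0.799) and *Rxra* at 0.440 (0.290 to 0.672), between an unnamed cluster of the culture and muscle-like cells of the tail. *Crabp1* was also higher in the unnamed code 7, at 2.56 (1.80 to 3.72). Code 3 set pluripotent-like cells of the culture against skin-like cells of the tail, which also held white blood cell markers. There *Crabp1* was at 0.400 (0.251 to 0.663), *Rarb* at 0.139 (0.0599 to 0.336) and *Rxra* at 0.338 (0.231 to 0.506). In code 6, between an unnamed cluster of the culture and blood-like cells, *Rara* was at 3.71 (1.74 to 9.07), *Rarg* at 3.27 (2.02 to 5.57), *Rxrb* at 4.18 (2.14 to 9.10) and *Crabp2* at 0.424 (0.267 to 0.666), beside a median log2 ratio of 2.15 over all genes. In the endothelium-like code 11, *Rxrb* was at 2.81 (1.49 to 5.19).

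The third comparison was D10 over D6. Over whole libraries, *Rarg* was 4.0-fold higher at D10 (3.68 to 4.36), *Crabp2* 3.67-fold (3.41 to 3.96) and *Rxrg* 4.37-fold (2.42 to 8.45, 63 against 14 UMIs, but 2.34-fold as a mean over cells), and *Rarb* was lower at a ratio of 0.344 (0.305 to 0.386). These were 3 of 8 genes higher and 1 lower, where 11.3% of all genes tested were called higher and 13.8% lower (25.1%). *Crabp1* was at 0.562 (0.536 to 0.588) over whole libraries, but at 3.73 without the cells of culture code 9 and D6 PM code 5, a comparison chosen after the values were seen. Leaving out D6 PM code 5 alone gave 4.25 and leaving out culture code 9 alone gave 0.493, so the direction for *Crabp1* over whole libraries rested on D6 PM code 5. *Rarg* was at 7.02 and *Crabp2* at 5.47 without the cells of both codes. Whether feeder fibroblasts were among these cells was not tested.

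Against the somite-like code 4 of D6 PM, code 1 of the D10 culture was 8.04-fold higher in *Rarg* (5.78 to 11.5), from 6.09 to 48.9 CPM. *Rxra* was at 1.77 (1.34 to 2.37) and *Crabp2* at 1.27 (1.14 to 1.42). *Crabp1* was lower at 0.354 (0.307 to 0.409) and *Rarb* at 0.602 (0.475 to 0.766), and the intervals for *Rara* (0.994, 0.874 to 1.13) and *Rxrb* (1.06, 0.915 to 1.24) included 1. Of 7 genes, 1 was called higher and 1 lower, where 13.8% of all genes were called higher and 15.1% lower (28.9%) and the median log2 ratio of all genes was −0.16. Code 2 of the culture over the same D6 cells was 8.33-fold higher in *Rarg* (5.97 to 12), with *Rxra* at 1.70 (1.27 to 2.31), and lower in *Crabp1* at 0.416 (0.357 to 0.486) and in *Rarb* at 0.424 (0.317 to 0.566). These were 1 of 7 genes called higher and 2 lower, where 13.9% of all genes were called higher and 17.7% lower (31.6%). Code 4 of the culture, compared with the same D6 cells after the values were seen, was 14-fold higher in *Rarg* (10.3 to 21.0), 2.13-fold in *Rxra* (1.49 to 3.05) and lower in *Rarb* at 0.286 (0.164 to 0.473) and *Crabp1* at 0.436 (0.345 to 0.547), where 11.2% of all genes were called higher and 16% lower (27.2%). Codes 1, 2 and 4 are compared here with 1 group of D6 cells, so their ratios are not independent.

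Pluripotent-like cells were compared as well, also after the values were seen. Code 3 of the D10 culture over code 2 of D6 PM was 4.21-fold higher in *Rarg* (3.60 to 4.95), 4.79-fold in *Crabp2* (3.40 to 6.89) and 2.28-fold in *Rara* (1.92 to 2.72), and lower in *Rarb* at 0.339 (0.176 to 0.618), where 8.93% of all genes were called higher and 6.18% lower (15.1%). Code 9 of the D10 culture over code 5 of D6 PM, a further comparison chosen after the values were seen, had a *Rarg* ratio of 0.627 (0.354 to 1.03, 16 against 343 UMIs). *Crabp2* was higher there at 3.1 (2.42 to 3.94), 1 of 7 genes, and none was called lower, where 8.8% of all genes were called higher and 14.8% lower (23.6%). *Rarg* was thus higher at D10 in the pluripotent-like comparison, and the interval of its ratio in code 9 over code 5 included 1.

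The wider retinoid pathway was described by lists of genes. Both genes for breakdown enzymes were called higher in cartilage-like code 4 of the tail, and *Cyp26b1* alone in the culture. *Cyp26b1*, which encodes a retinoic acid hydroxylase, was at 88.3 CPM in tail code 4 against 17.8 CPM in code 1, a ratio of 4.97 (4.11 to 6.01), and at 37.6 against 8.68 CPM in the culture, a ratio of 4.33 (3.38 to 5.54). *Cyp26a1* was at 3.25 (1.55 to 6.88) in the tail and 1.91 (1.37 to 2.63) in the culture. With these, 2 of 2 genes were called higher in the tail, where 4.68% of all genes were, and 1 of 2 in the culture, where 3.84% were. The same shares of all genes hold for the lists that follow on codes 4 and 1.

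Of the genes for retinol transport and retinoic acid synthesis, 5 of 9 tested were lower and 1 higher in code 4 of the tail, with a median log2 ratio of −1.38, beside 10.9% of all genes lower and 4.68% higher. In the culture 3 of 9 were lower and none higher, with a median of −0.74, beside 8.85% and 3.84% of all genes. *Aldh1a2* and *Aldh1a3*, genes of retinaldehyde dehydrogenases that make retinoic acid, were lower in code 4 of the tail at 0.0171 (0.00206 to 0.0622) and 0.0387 (0.00465 to 0.142), and in the culture at 0.0846 (0.0101 to 0.312) and 0.138 (0.106 to 0.177). *Rbp4*, the serum retinol carrier gene, was the gene called higher in tail code 4, at 4.10 (3.30 to 5.10). *Aldh1a1*, another gene of this enzyme family, was at 0.146 (0.00352 to 0.906, 1 against 21 UMIs) in the tail, and *Ttr*, the gene of a carrier of serum retinol and thyroxine, had 0 against 71 UMIs in the culture. *Ttr* is also an endoderm marker and was at 447 CPM in culture code 8. The endoderm markers summed to 42.3 CPM in culture code 1 (*Afp* at 33.4 CPM) and 4.81 CPM in code 4. The part of endoderm-like cells or free RNA in the *Ttr* counts of code 1 was not tested.

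Known targets of retinoic acid went both ways in the tail, and those called in the culture were lower. The list shares *Rarb* and *Crabp2* with the 8 genes and shares others, among them *Cyp26a1*, *Stra6*, *Dhrs3* and *Nrip1*, with other lists. In tail code 4 over code 1, 5 of 10 were lower and 2 higher (*Cyp26a1* and the transglutaminase gene *Tgm2*), with a median log2 ratio of −1.11. *Meis1*, a homeobox gene, was at 0.214 (0.173 to 0.263). In the culture 2 of 11 were lower, *Rarb* and *Tgm2*, and none was higher, with a median of −0.61. *Tgm2* was at 3.60 (2.22 to 5.87) in the tail and 0.286 (0.154 to 0.490) in the culture.

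Of the corepressor and coactivator genes, 0 of 13 passed 2-fold between codes 4 and 1 in either library, with median log2 ratios of 0.081 (culture) and 0.039 (tail). The farthest from 1 were the corepressor gene *Nrip1* in the culture at 0.734 (0.656 to 0.820) and the coactivator gene *Ncoa1* in the tail at 0.572 (0.466 to 0.697). Of the orphan receptor genes, *Nr2f2* (COUP-TFII) was lower in code 4 at 0.254 (0.207 to 0.309) in the culture and 0.301 (0.254 to 0.355) in the tail, and *Nr2f1* (COUP-TFI) was lower in the tail at 0.0911 (0.0574 to 0.138), where 3 of 6 were called against 1 of 6 in the culture. Genes of other partners of RXR showed 1 of 8 called in the tail, lower in code 4 (*Pparg* at 0.245, 0.0281 to 0.982, 2 against 25 UMIs). In the culture 2 of 5 were called, *Nr4a1* and *Nr4a2*, each higher in code 4.

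Of the fatty acid binding proteins, *Fabp5*, which can also carry retinoic acid, was at 2226 CPM in tail code 4 and 482 CPM in code 1, a ratio of 4.62 (4.45 to 4.79), and at 1.58 (1.55 to 1.61) in the culture. *Fabp7* was at 10.5 (7.71 to 14.4) in the tail. In all, 2 of 3 tested passed 2-fold upward and 1 downward in the tail, and 0 of 4 did in the culture.

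In code 1 of the culture over the tail, *Aldh1a3* was 9.07-fold higher (7.72 to 10.7), *Ttr* 14.4-fold (4.75 to 71.7, 71 against 3 UMIs) and *Cyp26a1* 5.38-fold (3.20 to 9.67). The *Ttr* counts stand beside those of other endoderm markers in culture code 1, as given above. *Cyp26b1*, the other breakdown gene, was lower at 0.488 (0.389 to 0.611), so that 1 of 2 was higher and 1 lower. *Aldh1a2* was lower at 0.201 (0.162 to 0.248) and *Meis2* at 0.204 (0.192 to 0.217). Of the genes for synthesis and transport, 3 of 10 were higher and 2 lower, and of the known targets, 3 of 11 were higher and 4 lower. Genes of other partners of RXR were lower in 5 of 8 and higher in 1, with a median log2 ratio of −2.35, among them the lower *Nr4a1* at 0.0553 (0.0364 to 0.0810) and *Ppara* at 0.0495 (0.00976 to 0.156, 3 against 37 UMIs) and the higher *Ppard* at 2.63 (2.25 to 3.08). Of the fatty acid binding proteins 3 of 4 were higher and 1 lower, with a median of 2.33, among them *Fabp4* at 9.52 (3.91 to 30.1), *Fabp5* at 5.36 (5.21 to 5.53) and *Fabp7* at 0.200 (0.110 to 0.345). Orphan receptor genes were lower in 2 of 6. Coregulators were lower in 3 of 13, *Ncoa1*, *Ncoa2* and *Gps2*, a share near that of all genes. Of all genes tested in this comparison, 20.7% were called lower and 9.41% higher.

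Against the somite-like cells of D6 PM, code 1 at D10 was lower in *Aldh1a2* at 0.0319 (0.0262 to 0.0385, from 223 to 7.11 CPM) and in *Stra6*, the gene of the membrane receptor for the retinol carrier, at 0.0251 (0.0214 to 0.0294, from 403 to 10.1 CPM). *Rdh10*, a retinol dehydrogenase gene, was lower at 0.153 (0.136 to 0.171). *Aldh1a3* had 2348 UMIs at D10 and 0 in those D6 cells. The *Hox* target *Hoxb1* was lower at 0.00608 (0.00164 to 0.0158), and *Cdx1* had 0 against 54 UMIs. Of the known targets 1 of 13 was higher and 5 were lower, beside 13.8% of all genes higher and 15.1% lower. Synthesis and transport genes were higher in 2 of 9 and lower in 3, other RXR partners higher in 2 of 6 and lower in 3, orphan receptors lower in 3 of 6, fatty acid binding proteins higher in 2 of 4 and coregulators lower in 1 of 13. Both CYP26 genes were higher, at 2.15 (1.39 to 3.47) for *Cyp26a1* and 6.59 (3.26 to 15.6) for *Cyp26b1*.

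Members were also compared by their pattern over 27 clusters with at least 50 cells, as Pearson's r of log2(CPM + 1) among 14388 genes. The clusters share libraries and depth, so r is a description. *Crabp1* and *Crabp2* were close, at r = 0.88, and *Crabp2* was the gene nearest to *Crabp1*. *Map1a* and *Tmem200a* followed at 0.83 each. The genes nearest to *Crabp2* were *Dclk1* and *Vash2*, each at 0.88, along with *Crabp1*. The genes nearest to *Rarg* were *Rps6ka4* and *Rbm43* at 0.84 and *Socs1* at 0.80. For the other members they were *Strn3* for *Rara* (0.96), *Slit2* for *Rarb* (0.81), *2010111I01Rik* for *Rxra* (0.91), *Bhlhb9* for *Rxrb* (0.96) and *Adcyap1r1* for *Rxrg* (0.87). Within the receptors, *Rara* and *Rxrb* had r = 0.88 and *Rarb* and *Rarg* had r = −0.14.

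Receptor genes were then counted within single cells. In thinned cells of tail code 4, any RAR gene was detected in 53.8% and any RXR gene in 25.8%, and both in 14.2% (10.0 to 19.2), beside a product of the 2 shares of 13.9%. In culture code 4 both were detected in 6.4% (4.63 to 8.58), beside 6.57%. *Crabp1* and *Crabp2* were detected together in 24.6% (21.4 to 28.1) of cells in tail code 1, beside 23.7%, and in 7.91% (5.76 to 10.5) of cells in culture code 5, beside 2.52%. The share was also above the product in culture code 1, at 1.43% (1.01 to 1.96) beside 0.860%, and code 2, at 1.57% (0.972 to 2.38) beside 0.946%. In culture code 4 it was 0.468% (0.0966 to 1.36), beside 0.467%.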

How the data were processed

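Single-cell data of the culture, tail and D6 PM libraries were analysed. The tables as deposited by the authors hold raw UMI counts for each gene in each cell, made with Cell Ranger from 10x 3′ v3 libraries, with cells of high mitochondrial share and the lowest and highest cells by transcripts removed by the authors; Seurat 3.0 is named in the submitters' processing notes. The build of these counts is not given in the sources used here. The 8 genes, the gene lists and several contrasts were chosen with earlier results of these data known.

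UMIs were summed per code (Python 3.11.15, NumPy 2.4.6, SciPy 1.17.1). Poisson intervals were used for levels, conditional binomial intervals for ratios and Clopper-Pearson intervals for shares, at 95%. Cells were thinned to 3000 UMIs, which left out 1157 culture, 100 tail and 1006 D6 PM cells. Scrublet (Scanpy 1.11.5, expected rate 6%) called 116, 9 and 81 cells as doublets, which were kept. Named genes were the 8 members, at most 4 examples per list and comparison with the largest ratios, and the 3 closest genes in pattern for *Rarg*, *Crabp1* and *Crabp2* and the closest for each other member. Some list genes are counted but not reported here by name. The fold rule was also run on simulated data, the outcome of which is not reported and supports no result here. Alternatives varied doublets, scaling, the averaging over cells, depth, thinning, the fold and the UMI minimum.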

Additional observations from a re-analysis of the deposited data

Results flagged for a closer look

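*Rara* moved in opposite directions between dividing code 2 and code 1. The ratio of code 2 over code 1 was 1.15 (1.04 to 1.28) in the culture and 0.763 (0.652 to 0.890) in the tail. It was picked out because both intervals excluded 1 on opposite sides; the difference between the libraries was not tested, as each is 1 library.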

How the results depend on the processing

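Of 51 member ratios, all stayed within their main interval without called doublets and with cells of at least 3000 UMIs only, and 50 did without mitochondrial, ribosomal protein and haemoglobin genes, the exception being *Crabp1* over whole libraries of D10 and D6 (0.535). With a mean over cells in place of summed UMIs, 42 did. The other 9 kept their direction: in culture over tail *Crabp1* was at 0.0683 in code 1 and 0.0719 in code 2 and *Crabp2* at 0.322 in code 1; in D10 over D6 *Rxra* was at 1.36, *Rxrb* 1.60, *Rxrg* 2.34 and *Crabp1* 0.514; and in D10 code 1 over D6 PM code 4 *Crabp1* was at 0.445 and *Crabp2* at 1.48. Without culture code 9 and D6 PM code 5, an alternative added after the data were seen, *Crabp1* turned to 3.73, and *Rarg* was at 7.02, *Rxra* 1.53 and *Crabp2* 5.47. Without D6 PM code 5 alone, also added, *Crabp1* turned to 4.25, and *Rarg* was at 7.0, *Rxra* 1.55 and *Crabp2* 5.57, and without culture code 9 alone *Crabp1* was at 0.493. The added alternative of genes listed in both tables kept 15 of 15 ratios. The closest gene in pattern stayed first for 7 of 8 members with a pseudocount of 10 and for 4 of 8 with Spearman's rho. Shares of cells moved with the thinning depth, 26 of 40 at 2000 and at 5000 UMIs, and co-detection in 37 of 56 cases at 5000 UMIs. Of 40 levels, 15 moved without mitochondrial, ribosomal protein and haemoglobin genes and 8 with a mean over cells. Counts of list genes moved by over 1.5 times in 10 of 28 cases at a 1.5-fold threshold, 8 at a minimum of 100 UMIs and 4 at a minimum of 1 UMI. The causes were not tested. No paired analysis was possible because each group is 1 library, and no replicate could be left out. Depth limits *Rxrg*, with 14 UMIs in D6 PM, and *Rarb* in code 4, with 18 UMIs in each library.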
